A study of Mus musculus with 24 samples.

Results

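The regions described here are places in the genome of mouse intestinal ILC3s where an antibody to CFP1 gave a peak in every control library and went on giving a peak in most of the libraries whose cells carry a Cre acting on the CFP1 gene. The peaks of the 6 WT anti-CFP1 lists, on chromosome X and the 19 autosomes, were merged into 11791 regions, and 2331 of these were overlapped by a peak in all 6 WT lists. A region was kept when it was also overlapped by a peak in at least 3 of 4 KO lists, namely CCR6+ replicates 1 and 2, NKp46+ replicate 1 and DN replicate 1. This left 468 of the 11791 regions, called persisting regions below. The regions were thus selected on the presence of CFP1 peaks in KO and in WT, so their CFP1 peaks are described without a test.

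ILC3s, the third group of innate lymphoid cells, live in mucosal tissue and make interleukin-22 and interleukin-17. KO cells came from Cxxc1flox/floxRorccre mice, in which both Cxxc1 alleles are floxed and a Cre is present, and WT cells came from Cxxc1flox/flox mice, which carry the same floxed alleles without the Cre. The Cre of these mice is not limited to ILC3s and also acts in T cells. Cells of both genotypes were sorted from the small intestine into CCR6+, NKp46+ and DN ILC3s, with 100000 cells in a library. Mice were 6 to 8 weeks old by the age label, while the protocols speak of aged and young animals and of a culture medium, so age and handling are not settled. Each of the 12 combinations of genotype, subset and antibody (CFP1 or H3K4me3) had 2 libraries, and the labels do not say whether these came from separate mice. CUT&Tag, in which an antibody brings a transposase to the chromatin it binds, gave 1 deposited peak list per library, with no read counts. Depth is therefore unknown, a missing peak says that the authors' calling found none at that depth, and a signal in fewer cells cannot be told apart from a weaker signal in each cell.

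Cxxc1 encodes CFP1 (CXXC finger protein 1), a subunit of the SETD1A and SETD1B complexes. Its CXXC zinc finger binds CpG dinucleotides that carry no methyl group, which are concentrated in CpG islands at gene starts, and its PHD finger binds H3K4me3, the mark that the SETD1 complexes write. H3K4me3 marks the first nucleosomes of active and poised promoters.

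The KO lists were of unequal length. KO CCR6+ lists held 1312 and 1250 CFP1 peaks, KO NKp46+ lists 714 and 4891, and KO DN lists 1131 and 8881, against 4574 to 7983 in the 6 WT lists. The 4 short KO lists are those of the rule. The long lists of KO NKp46+ replicate 2 and KO DN replicate 2 were as long as or longer than a WT list, although their labels put them in the KO group, and they are kept apart below. Peak lists hold no measure of the deletion itself: the Cxxc1 gene ends lay at a CFP1 peak in 0 of 6 KO and 2 of 6 WT lists and at an H3K4me3 peak in 6 of 6 KO and 6 of 6 WT lists. Of 13 ILC3 marker genes, 5 to 7 had H3K4me3 at a gene end in a KO library and 8 to 10 in a WT library. Of 8 T cell markers 1 to 8 did in KO and 3 to 8 in WT. Over all 21631 protein-coding genes the counts were 9857 to 11550 in KO and 9825 to 10781 in WT, which overlap. The highest counts in any library were 5 of 8 epithelial, 3 of 5 NK and ILC1, 3 of 6 ILC2 and 3 of 6 myeloid markers. For B cell and for stromal and endothelial markers they were 2 of 6 each. The part of other cells in the results was not tested.

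The promoters printed here show the sequence around transcription starts inside these regions, which is not always the sequence under the CFP1 summit. Cxxc1's product reads CpG, so each CG is in capitals, and CCAAT and its reverse complement ATTGG, the pentamer bound by the trimeric factor NF-Y, are in capitals as well because promoters at persisting regions held it more often than those at other CFP1 regions. Each line covers 250 b before to 50 b after a RefSeq transcription start of GRCm38.p6, the assembly whose coordinates are those of mm10, on the strand of the gene and 5′ to 3′. The first 4 lines are persisting regions among the 10 with the highest CFP1 rank in the KO lists. Promoters of Odr4 (KO rank 98.8) and 1700113A16Rik (97.1), also among these 10, are not printed and hold 0 CCAAT or ATTGG. H2az2 encodes the histone variant H2A.Z.2 (chr11:6444394-6444693, minus strand, 27 CG and 4 CCAAT or ATTGG), Slc39a10 a zinc importer (chr1:46853569-46853868, minus strand, 47 CG), Cep57 a centrosomal protein (chr9:13827058-13827357, minus strand, 20 CG and 1 ATTGG) and Limk1 a kinase that phosphorylates cofilin (chr5:134688541-134688840, minus strand, 35 CG and 1 CCAAT). Gm51814, a predicted gene, has the fewest CG of all promoters at persisting regions (chr10:19062529-19062828, plus strand, 3 CG). Klhl9, a substrate adaptor of a CUL3 ubiquitin ligase (chr4:88722459-88722758, minus strand, 22 CG), and Dguok, the mitochondrial deoxyguanosine kinase (chr6:83506920-83507219, minus strand, 19 CG), are for contrast: their regions had a peak in all 6 WT lists and in 0 of the 4 KO lists, with WT ranks of 98.9 and 98.3, the highest among such regions with a promoter in the table.
H2az2: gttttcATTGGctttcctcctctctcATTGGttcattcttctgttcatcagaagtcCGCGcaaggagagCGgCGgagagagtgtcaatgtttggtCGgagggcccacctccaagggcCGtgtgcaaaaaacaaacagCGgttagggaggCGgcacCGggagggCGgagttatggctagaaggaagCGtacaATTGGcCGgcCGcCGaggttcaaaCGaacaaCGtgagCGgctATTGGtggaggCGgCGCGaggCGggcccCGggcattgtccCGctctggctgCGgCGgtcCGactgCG
Slc39a10: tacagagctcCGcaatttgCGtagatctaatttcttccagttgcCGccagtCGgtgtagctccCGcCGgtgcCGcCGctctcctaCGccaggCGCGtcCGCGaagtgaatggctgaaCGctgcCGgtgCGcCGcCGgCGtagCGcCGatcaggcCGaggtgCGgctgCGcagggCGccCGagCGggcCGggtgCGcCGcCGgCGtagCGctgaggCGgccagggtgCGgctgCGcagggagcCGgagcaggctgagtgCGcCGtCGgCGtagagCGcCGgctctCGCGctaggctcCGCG
Cep57: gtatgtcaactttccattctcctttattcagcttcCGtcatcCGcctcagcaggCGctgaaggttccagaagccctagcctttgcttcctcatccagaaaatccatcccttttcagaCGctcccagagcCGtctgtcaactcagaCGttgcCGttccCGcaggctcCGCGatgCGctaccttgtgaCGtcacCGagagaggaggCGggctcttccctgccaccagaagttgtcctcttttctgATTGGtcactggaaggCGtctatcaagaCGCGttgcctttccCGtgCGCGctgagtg
Limk1: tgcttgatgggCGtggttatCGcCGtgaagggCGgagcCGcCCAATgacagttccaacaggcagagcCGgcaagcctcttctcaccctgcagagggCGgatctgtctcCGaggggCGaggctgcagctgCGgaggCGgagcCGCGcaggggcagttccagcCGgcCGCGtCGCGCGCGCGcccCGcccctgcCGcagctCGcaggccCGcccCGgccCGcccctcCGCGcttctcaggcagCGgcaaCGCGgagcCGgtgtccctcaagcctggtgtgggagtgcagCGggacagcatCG
Gm51814: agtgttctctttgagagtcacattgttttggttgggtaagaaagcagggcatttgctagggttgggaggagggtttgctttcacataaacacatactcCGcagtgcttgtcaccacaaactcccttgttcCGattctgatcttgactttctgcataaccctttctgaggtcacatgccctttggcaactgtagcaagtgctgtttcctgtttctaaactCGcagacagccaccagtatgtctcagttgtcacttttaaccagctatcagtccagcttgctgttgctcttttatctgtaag
Klhl9: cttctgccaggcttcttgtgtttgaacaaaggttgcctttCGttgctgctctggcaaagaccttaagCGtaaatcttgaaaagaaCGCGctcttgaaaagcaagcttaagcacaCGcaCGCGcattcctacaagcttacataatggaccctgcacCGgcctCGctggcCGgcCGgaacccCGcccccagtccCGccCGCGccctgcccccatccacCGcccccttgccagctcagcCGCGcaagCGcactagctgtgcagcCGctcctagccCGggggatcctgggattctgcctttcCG
Dguok: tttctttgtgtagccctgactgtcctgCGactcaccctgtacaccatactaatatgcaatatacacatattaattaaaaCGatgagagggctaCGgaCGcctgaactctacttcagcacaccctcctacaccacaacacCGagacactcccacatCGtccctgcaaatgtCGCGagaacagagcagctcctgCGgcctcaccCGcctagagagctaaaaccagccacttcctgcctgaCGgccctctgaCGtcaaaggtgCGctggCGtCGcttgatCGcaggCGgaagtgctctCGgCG

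In number of KO lists, 191 of the persisting regions had a peak in all 4 and 277 in exactly 3. The list that lacked the peak was KO CCR6+ replicate 2 for 108 of the 277, KO NKp46+ replicate 1 for 104, KO DN replicate 1 for 45 and KO CCR6+ replicate 1 for 20. Among the other regions shared by all 6 WT lists, 465 had a peak in 2 of the 4 KO lists, 661 in 1 and 737 in 0. Persisting regions thus made up 20.1% of the 2331 regions shared by all WT lists. They took up 34.1% and 28.9% of the peaks in KO CCR6+, 51.0% in KO NKp46+ replicate 1 and 37.5% in KO DN replicate 1. In a WT list they took up 5.88% to 10.3% of the peaks. The rule itself required peaks in these KO lists, and the contrast with WT is one of list length. Persisting regions held 361 to 448 peaks of a short KO list and 469 to 472 of a WT list. Nearly all other peaks of the short KO lists were also at WT sites: 96.1% to 99.1% of each list overlapped a merged WT region.

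The 2 long KO lists were not used to choose the regions. KO NKp46+ replicate 2 had a peak at 457 of the 468 persisting regions (97.7%), against 1866 of all 2331 regions shared by the WT lists (80.1%) and 474 of the 737 regions with 0 of 4 KO lists (64.3%). KO DN replicate 2 had a peak at 468 of 468 (100%), against 95.8% of all 2331 and 90.9% of the 737. With 1 library each, no test was made. In these 2 libraries most regions that lacked a peak in all 4 short KO lists therefore did have one.

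Regions that persisted in more KO lists ranked higher for CFP1 in WT. Peaks were ranked by the authors' fold enrichment within each list from 0 to 100, with 100 the highest. The KO rank of a region is its median over those of the 4 KO lists that had a peak, so a list without one does not lower it. The median WT rank was 58.1 at regions with 0 of 4 KO lists, 66.8 with 1, 76.1 with 2, 84.7 with 3 and 90.4 with 4, over 737, 661, 465, 277 and 191 regions. The classes overlap: the 25th and 75th percentiles of the persisting regions were 76.8 and 93.9, and 90.0 was the 95th percentile of regions with 0 of 4 KO lists. In the KO lists of the rule the median rank of the persisting regions was 64.6, with 25th and 75th percentiles of 45.1 and 80.9. H3K4me3 went the other way: the median WT rank of the H3K4me3 peaks was 67.3 with 0 of 4 KO lists, 64.3 with 1, 63.0 with 2, 58.2 with 3 and 57.2 with 4, while the bases they covered were 1375, 1417, 1454.5, 1557.5 and 1611.5. Sites with more KO lists thus had wider H3K4me3 peaks of lower fold enrichment, and both are descriptions of regions that share the same libraries.

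**Figure D1:**
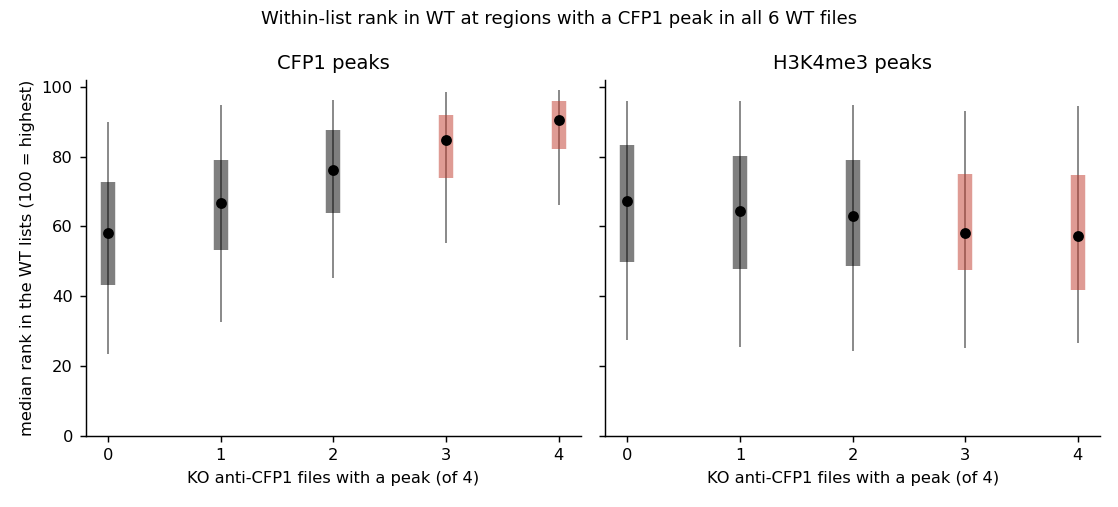
Median within-list rank of fold enrichment over the 6 WT lists for CFP1 peaks (left) and H3K4me3 peaks (right), by the number of the 4 KO anti-CFP1 lists with a peak, at regions with a CFP1 peak in all 6 WT lists. Points are medians over regions, thick bars the 25th to 75th and thin lines the 5th to 95th percentiles, with persisting regions in red; the CFP1 median is 58.1 at 0 lists and 90.4 at 4, and the H3K4me3 median 67.3 and 57.2.

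CFP1 peaks that persisted were narrower than at the same places in WT. The median peak width over the persisting regions was 539.5 and 565 b in KO CCR6+ replicates 1 and 2, 484.5 b in KO NKp46+ replicate 1 and 485 b in KO DN replicate 1, against 779 to 965.5 b in the 6 WT libraries. The long KO lists had 785 b in NKp46+ replicate 2 and 957.5 b in DN replicate 2, within the WT range. Over whole lists the median width was 413 to 528 b in the 4 short KO lists, 578 and 643 b in the 2 long ones and 538 to 654 b in WT, and the part of list length or depth in the narrower peaks was not tested. Region by region, the median width was 514 b over the 4 KO lists of the rule and 876.5 b over the 6 WT lists. All 468 regions had the smaller median in KO, and at 284 every KO width was below every WT width. KO peaks were also narrower at other regions shared by the WT lists. Their KO and WT medians were 433 and 708 b with 1 KO list, and 471 and 800.5 b with 2. Narrower KO peaks were thus not limited to persisting regions. The KO summit lay a median of 52 b from the WT summit, and 358 of 468 (76.5%) lay within 100 b. With 1, 2, 3 and 4 KO lists the median distance was 89.0, 74.5, 49.5 and 54.5 b. The 6 WT summits of a region spread over a median of 186.5 b, which is not a like measure.

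**Figure D2:**
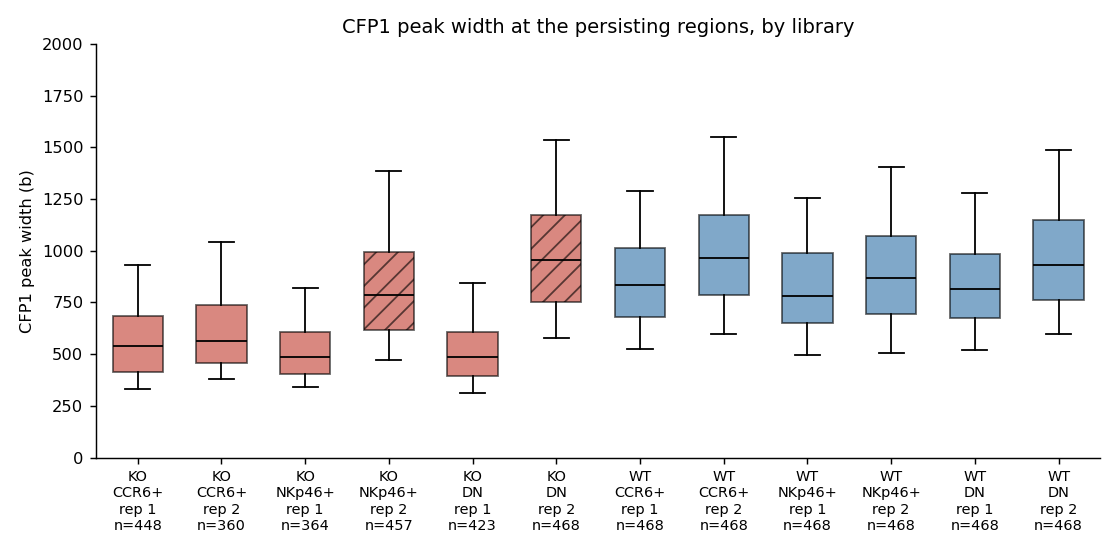
Width in bases of the strongest CFP1 peak at each persisting region, by library, with n the number of the 468 regions that had a peak in that library. Boxes show the 25th, 50th and 75th percentiles and whiskers the 5th and 95th; KO is red, WT blue, and the 2 hatched KO libraries were not used to choose the regions. The 4 KO libraries of the rule have medians of 484.5 to 565 b, below all 6 WT medians of 779 to 965.5 b, and the hatched ones have 785 and 957.5 b.

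The regions with the highest KO ranks show how this looks at single genes. Fold enrichments are the authors' values within each list, and no difference between lists is read from them. At H2az2 (chr11:6443902-6444738) the fold enrichment was 10.25 and 7.82 in KO CCR6+, 8.02 and 10.53 in KO NKp46+, 9.07 and 15.03 in KO DN, 17.14 and 17.32 in WT CCR6+, 14.67 and 12.87 in WT NKp46+ and 14.39 and 15.79 in WT DN. This gave it the highest WT rank of the persisting regions (100) and a KO rank of 97.3, and its peak was 643, 414, 533 and 479 b wide in the 4 KO lists of the rule, against 569 to 714 b in WT. Of these KO widths only 643 b thus fell inside the WT range, and WT CCR6+ replicate 1 had 641 b. KO NKp46+ replicate 2 had 671 b against 569 b in its WT counterpart, and KO DN replicate 2 had 589 b against 596 b. The peak at Slc39a10 (chr1:46852953-46854219, KO rank 98.5, WT rank 97.4) was 638, 664, 665 and 675 b wide in the 4 KO lists, against 959 to 1266 b in WT. These groups do not overlap, while KO DN replicate 2 had 1251 b there and KO NKp46+ replicate 2 had 923 b.

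The shared promoter of Cep57 and Fam76b (chr9:13826634-13828218, KO rank 97.7, WT rank 94.9) had peaks of 933, 511, 554 and 633 b in the 4 KO lists, against 1134 to 1386 b in WT. KO NKp46+ replicate 2 had 1329 b there and KO DN replicate 2 had 1156 b, against 1180 and 1194 b in the WT counterparts. Zfp607b, a gene of a zinc finger protein (chr7:27688581-27689697), ranked highest in KO (99.4, WT rank 98.2), with peaks of 619, 385 and 376 b in 3 KO lists and none in KO CCR6+ replicate 1. In WT its width went with the replicate number, at 482, 495 and 509 b in replicate 1 and 924, 987 and 1117 b in replicate 2 of CCR6+, NKp46+ and DN, so the KO and WT widths overlap over all libraries, while each of the 5 KO widths, the long lists' 960 and 1032 b included, was below that of the WT library of the same subset and number. Its summit was 1 b from the WT summit. Odr4 and Tpr (chr1:150392763-150393671), divergent genes of which Tpr encodes a nuclear pore protein, had a KO rank of 98.8 and peaks of 817, 575 and 744 b in KO, against 749 to 899 b in WT, which overlap, although each was below the 834, 843 and 775 b of its WT counterpart in subset and number. Limk1 (chr5:134688579-134689215, KO rank 96.8) had narrow peaks in both groups, of 457, 340 and 431 b in KO and 438 to 608 b in WT, which overlap, with the WT counterparts at 608, 438 and 518 b. In both long KO lists its peak was 508 b wide, above the 458 and 487 b of the WT counterparts.

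The other regions in the top 10 by KO rank lay at Zfp438 (98.5), at chr3:88177557-88178230 by the start of 1700113A16Rik (97.1), at Trim33, the gene of a ubiquitin ligase of the TGF-β pathway (chr3:103279123-103280018, 96.9), and between Cdca2, which encodes a chromosome-bound subunit of protein phosphatase 1, and Kctd9 (chr14:67715316-67716549, 96.7). After H2az2, the highest WT ranks were all 99.8 and belonged to Rpl22l1, a paralogue of a ribosomal protein gene (chr3:28805360-28805998), Ensa, whose product inhibits protein phosphatase 2A in mitosis (chr3:95624838-95625390), Azi2 and Zcwpw2 (chr9:118040284-118041034) and Kat7, a histone acetyltransferase (chr11:95309587-95310434). Their KO ranks were 90.5, 89.5, 95.4 and 91.0. Just outside the rule, with 2 of 4 KO lists, the highest KO ranks were 98.8 at Anapc15, a subunit of the anaphase-promoting complex, 98.4 at Dtx4, a Deltex ubiquitin ligase, and 98.0 at Ranbp2, a nuclear pore protein. A high rank in 2 KO lists and absence from the other two thus occurred together. Just inside it, the lowest KO rank was 4.8 at Zmym2.

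Persisting regions differed in extent, from 464 to 2725 b with a median of 1091.5 b and 528.1 kb in all. The narrowest WT peaks were at 9130401M01Rik (chr15:58033877-58034340, median 434.5 b), Pole4, a subunit of DNA polymerase epsilon (chr6:82652413-82653112, 450 b), and Larp7 and Zgrf1, of which Larp7 encodes a protein of the 7SK particle (chr3:127552958-127553451, 459.5 b). The widest were at Gm20783 and LOC108167694 (chr9:124422990-124425714, 2362 b), Rev3l, the catalytic subunit of DNA polymerase zeta (chr10:39731259-39733097, 1727.5 b), and Usp9x, a deubiquitinase (chrX:13070690-13072874, 1675 b). At Rev3l the peak was 618, 445 and 431 b wide in 3 KO lists of the rule, 1775 and 1826 b in the 2 long KO lists and 1654 to 1834 b in WT. The short KO lists and WT do not overlap there, and the long KO lists fall in the WT range.

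By position, 415 of 468 persisting regions (88.7%) lay within 1000 b of an end of a protein-coding gene, against 86.2% of all regions shared by the WT lists and 51.8% of all merged WT regions. The share among persisting regions was thus close to that of the regions they were drawn from. They touched the ends of 532 genes, 117 regions touched the ends of several genes, and of the 53 without a gene end 45 were inside a gene and 8 in none. A RefSeq transcription start lay inside 377 of the regions (80.6%), against 77.5% of all regions shared by the WT lists. Starts on both strands were found in 111 persisting regions (23.7%), and the share was 14.8%, 19.1%, 21.3%, 22.0% and 26.2% with 0, 1, 2, 3 and 4 KO lists. Median region width was 949, 990, 1042, 1043 and 1127 b in the same classes. A wider region can hold more starts, and the part of width in this share was not tested.

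The WT summit of persisting regions lay on both sides of the start. Its median position was 4.5 b downstream of the nearest start, with the 25th percentile 204 b upstream and the 75th 153 b downstream, against a median of 91 b downstream, a 25th percentile 61 b upstream and a 75th 185.5 b downstream at regions with 0 of 4 KO lists. More than 100 b upstream were 138 of 377 persisting regions (36.6%), against 119 of 554 (21.5%). More than 100 b downstream were 128 (34.0%), against 270 (48.7%). The share within 100 b was alike, at 29.4% and 29.8%. With 0, 1, 2, 3 and 4 KO lists the median position was 91.0, 71.5, 80.8, -11.0 and 44.2 b, with negative values upstream. The median position thus did not move steadily with the number of KO lists. The part of region width and of starts on both strands in these positions was not tested. Slc39a10 had its summit 192 b upstream, Rpl22l1 158 b downstream and H2az2 97 b downstream.

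**Figure D3:**
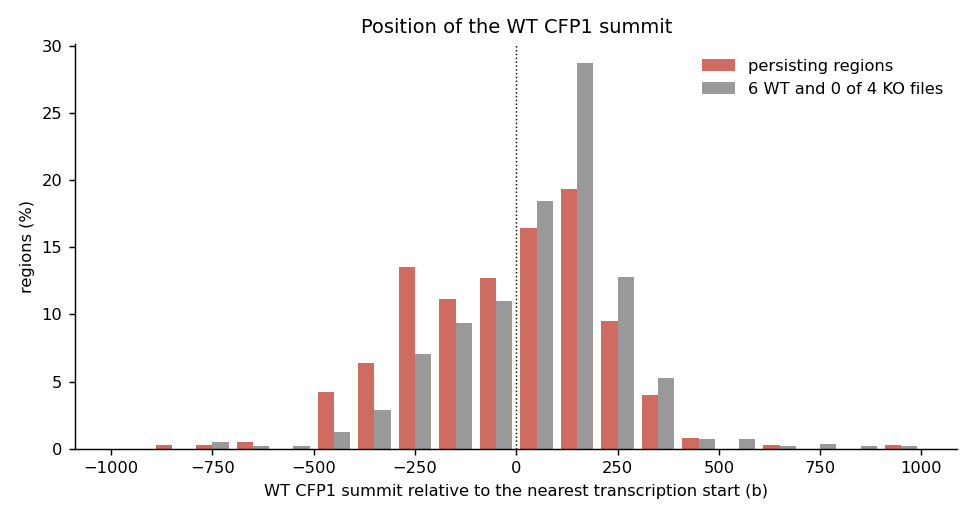
Position of the median WT CFP1 summit relative to the nearest RefSeq transcription start inside the region, in bases, with negative values upstream, as the percentage of regions per 100 b bin. Red bars are the 377 persisting regions with a start and grey bars the 554 such regions with 0 of 4 KO lists; 36.6% of the red and 21.5% of the grey regions lie over 100 b upstream.

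Gene groups were counted at the persisting regions by gene ends within 1000 b. They stand beside 532 of all 21631 protein-coding genes (2.46%) and beside the 21.3% of genes at regions shared by all WT lists whose region persisted. Splicing factors had 10 of 53 (18.9%): Hnrnpa0, Hnrnpa1, Hnrnpa2b1, Hnrnpc, Hnrnpdl, Hnrnpk, Hnrnpul1, Hnrnpul2, Srsf2 and Srsf5, all RNA-binding proteins of pre-mRNA processing. Hnrnpf (KO rank 46.9) and Hnrnph1 (40.4) had a start inside a persisting region and were not counted by gene ends. Of the list's genes at a region shared by all WT lists, 35.7% persisted among 28 splicing factors, 36.0% among 25 ubiquitin proteases and E2 enzymes, 33.3% among 15 mitochondrial ribosomal proteins, 23.1% among 26 translation factors, 6.25% among 16 RNA polymerase and Mediator genes and 5.26% among 19 oxidative phosphorylation genes. Hnrnpk, with Rmi1 at the same region (chr13:58401639-58403138), had a KO rank of 90.5 and a WT rank of 94.0, and Hnrnpa2b1, which shares its promoter with the heterochromatin protein gene Cbx3 (chr6:51469269-51471050), had 88.1 and 87.7. Ubiquitin proteases and E2 enzymes had 9 of 92 (9.78%), among them Usp5 (KO rank 91.9, shared with Cdca3), Usp15 (83.2) and Usp9x (23.7). Translation factors had 6 of 70 (8.57%), with Eif2s1 (76.0), Eif4g2 (70.6), Eif1 (67.6) and Eif5a (65.1) the highest in KO.

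Mitochondrial ribosomal proteins had 5 of 78 (6.41%), cytosolic ribosomal proteins 3 of 91 (3.30%; Rpl22l1, Rpl36al and Rps19), and Zfp genes 7 of 397 (1.76%). Zfp672 had a start inside a persisting region (KO rank 86.2) and is not among the 7. By gene ends, a single gene was counted among 51 proteasome genes (Psme2) and 58 RNA polymerase and Mediator genes (Polr2a, the largest subunit of RNA polymerase II). The same held for 105 oxidative phosphorylation genes (Cox20) and 34 aminoacyl-tRNA synthetases (Vars, KO rank 10.3). The proteasome gene Psma3 had a start inside a persisting region (KO rank 85.7) and was not counted by gene ends. Histone variants had 2 of 8 by gene ends, the H2A.Z genes H2az1 (chr3:137863716-137864730, KO rank 62.2) and H2az2. H3f3b had a start inside a persisting region (KO rank 85.2) and was not counted by gene ends. Of 16 CXXC domain and DNA methylation genes Mbd3, a subunit of the NuRD complex, was the only one at a persisting region (KO rank 57.3, WT rank 95.1) and also the only one at a region shared by all WT lists. Of 15 subunits of the SET1 and MLL complexes 6 lay at a region shared by all WT lists and 0 at a persisting one. Of 27 ILC3 genes these counts were 2 and 0, and of 12 tissue-restricted genes 0 and 0. All these counts take gene ends only, so a gene with just an inner start at a persisting region is missed. Gene lists can share regions and these counts were not tested.

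Cd3d, which encodes the delta chain of the T cell receptor complex, was the only marker gene of another cell type with a gene end at a persisting region (chr9:44986241-44987343, KO rank 37.4, WT rank 81.7). Its CFP1 peak was 315 and 822 b wide in KO CCR6+, 628 and 860 b in KO NKp46+, 534 and 1079 b in KO DN, 370 and 1045 b in WT CCR6+, 600 and 1103 b in WT NKp46+ and 466 and 1070 b in WT DN. Replicate 2 was thus wider than replicate 1 in all 6 groups, and KO and WT overlap. The H3K4me3 peak there covered 0 and 1102 b in KO CCR6+, 959 and 1258 b in KO NKp46+, 363 and 794 b in KO DN, 655 and 999 b in WT CCR6+, 781 and 1357 b in WT NKp46+ and 810 and 450 b in WT DN. Of the 8 T cell markers 1 to 8 had H3K4me3 in KO and 3 to 8 in WT libraries, and the part of T cells in the Cd3d region was not tested.

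All but 2 of the persisting regions carried H3K4me3 in every library. A peak of H3K4me3 overlapped 466 of 468 (99.6%) in all 12 libraries, against 98.7% of the regions shared by all WT lists and 59.6% of all merged WT regions. Within a library the count was 466 or 467 in KO and 467 or 468 in WT. The exceptions were Cd3d and a region inside Srsf4, a splicing factor gene (chr4:131896043-131896690), where H3K4me3 covered 0 b in all 6 KO libraries, 373, 324 and 408 b in replicate 1 of WT CCR6+, NKp46+ and DN, and 0 b in the 3 WT replicate 2 libraries. At Srsf4, WT replicate 1 stands apart from the other 9 libraries. The CFP1 peak there had fold enrichments of 7.95, 7.26 and 5.86 in 3 KO lists of the rule and 5.93 to 7.20 in WT, and a KO rank of 92.1.

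H3K4me3 was not used to choose the regions, so its width was tested. The bases under H3K4me3 peaks were compared with limma on log2 values, median-centred per library, over all 10040 H3K4me3 regions with a peak in all 12 libraries, and 466 of them were those of persisting regions. No 2 persisting regions shared an H3K4me3 region. Between KO and WT, 0 of 466 were called at an adjusted p under 0.05 (Benjamini-Hochberg), against 6 of 10040 (0.0598%), all narrower in KO, though without WT NKp46+ replicate 2 the fit called 21 of 10040, 11 wider and 10 narrower in KO. At an unadjusted p under 0.05 there were 23 of 466 and 823 of 10040. The median log2 difference, KO minus WT, was 0.007 at persisting regions, with 25th and 75th percentiles of -0.052 and 0.056, and 0.007 over all regions, with 25th and 75th percentiles of -0.077 and 0.074. Median coverage before centring was 1496 b in KO and 1569.25 b in WT at persisting regions, and 1183.5 b in KO and 1224.5 b in WT over all regions, and without centring the median log2 difference was -0.07 in both.

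Replicate numbers paired the samples in H3K4me3 width, and with the replicate number in the fit 1 persisting region was called, against 35 of 10040 (0.349%). It was Ddx3x, the X-linked gene of a DEAD-box RNA helicase (chrX:13280475-13281741), with a log2 difference of -0.42 (limma, adjusted p = 0.0468 with the replicate number, 0.338 without it). Its H3K4me3 covered 1072 and 2286 b in KO CCR6+, 1431 and 2061 b in KO NKp46+, 1459 and 2437 b in KO DN, 2351 and 2974 b in WT CCR6+, 1600 and 3044 b in WT NKp46+ and 2167 and 2768 b in WT DN. In all 6 pairs of the same subset and number KO was below WT, and the groups overlap because replicate 2 was wider in both. A pair of further regions had an adjusted p of 0.0502 in that fit, just past the threshold.

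The first of these was the promoter of Mrps18b, a mitochondrial ribosomal protein gene, and Ppp1r10, which encodes a nuclear regulator of protein phosphatase 1 (chr17:35916106-35917037). H3K4me3 covered 2065 and 3223 b in KO CCR6+, 1220 and 1635 b in KO NKp46+, 1931 and 3183 b in KO DN, 3209 and 3270 b in WT CCR6+, 2448 and 3367 b in WT NKp46+ and 3111 and 3139 b in WT DN. The 2 KO NKp46+ libraries were the lowest of the replicate 2 and of the replicate 1 libraries. The log2 difference was -0.49 (SE 0.087, limma adjusted p = 0.121), and within subsets it was -0.14 in CCR6+, -1.12 in NKp46+ and -0.20 in DN (adjusted p = 0.970, 0.115 and 0.999), with an adjusted p of 0.999 for a difference between subsets. The second was Susd6 (chr12:80790473-80791201), with 1047 and 1700 b in KO CCR6+, 1313 and 1543 b in KO NKp46+, 1372 and 2394 b in KO DN, 1777 and 2431 b in WT CCR6+, 1668 and 2466 b in WT NKp46+ and 1694 and 2434 b in WT DN. KO was below WT in all 6 pairs, and the log2 difference was -0.36 (SE 0.077, limma adjusted p = 0.217). Susd6 and Ddx3x were picked for small p-values, so their 6 of 6 pairs are no separate evidence. The printed bases are uncentred, and without centring the median log2 difference of all regions was -0.07. How many other regions have KO below WT in all 6 pairs was not counted. H2az2, with the highest WT CFP1 rank, had 702 and 1119 b in KO CCR6+, 1038 and 1137 b in KO NKp46+, 903 and 1172 b in KO DN, 1104 and 1165 b in WT CCR6+, 917 and 1201 b in WT NKp46+ and 1107 and 1213 b in WT DN, and these groups overlap.

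**Figure D4:**
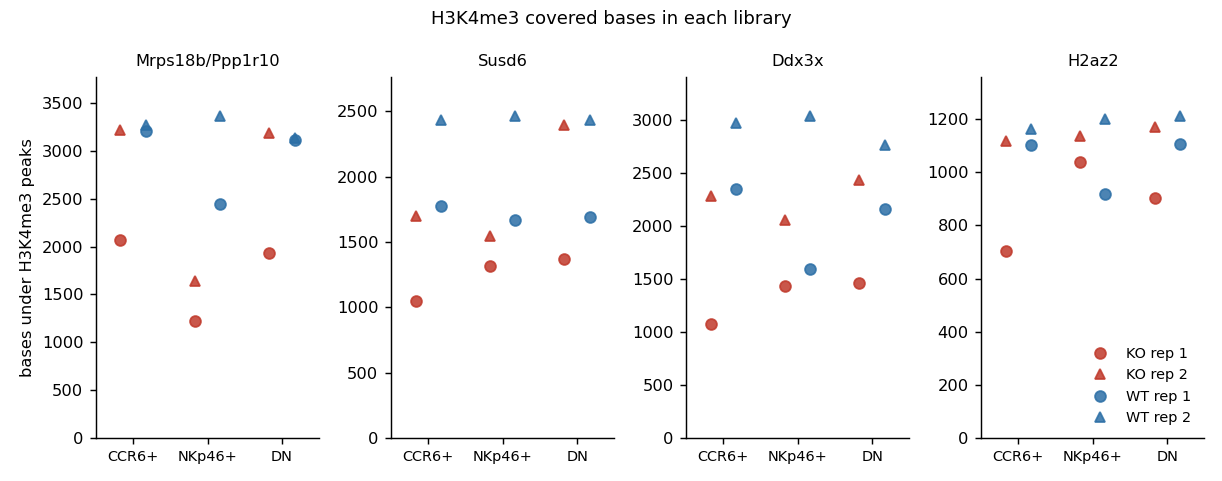
Bases under H3K4me3 peaks at the regions of Mrps18b and Ppp1r10, Susd6, Ddx3x and H2az2, for each of the 12 libraries by subset. KO is red and left of WT in blue, circles are replicate 1 and triangles replicate 2, and each axis starts at 0. At Susd6 and Ddx3x the KO point lies below the WT point of the same subset and number in all 6 pairs.

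Between subsets no persisting region was called either. For NKp46+ against CCR6+ 0 of 466 passed, beside 0 of 10040 (0%), with 2 and 169 at an unadjusted p under 0.05, and for DN against CCR6+ 0 of 466 beside 0 of 10040 (0%), with 2 and 308. The smallest p-values belonged to Mrps18b and Ppp1r10 (log2 NKp46+ minus CCR6+ of -0.53) and to Bach2, the gene of a transcriptional repressor of lymphocytes (0.21), and in the other comparison to Cdk11b, a cyclin-dependent kinase gene (log2 DN minus CCR6+ of -0.20), and Aebp2, a partner of Polycomb complex PRC2 (0.31). The limma adjusted p was 0.999 or higher for each, and the KO minus WT difference varied between subsets at 0 of 466 and 0 of 10040 regions (0%), with 6 and 138 at an unadjusted p under 0.05.

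Promoter sequence was not used to choose the regions either. The promoter with the start nearest to the WT summit was taken for each of the 377 persisting regions with one, from the RefSeq table described above. Its median G+C was 64.33% and its median number of CG in 300 b was 26, against 65.33% and 26 at 554 regions with 0 of 4 KO lists, and 56.67% and 13 over all 21045 protein-coding promoters. Persisting regions thus had CpG-rich promoters, with as many CG as CFP1 sites that had no peak in the short KO lists. The range ran from 3 CG at Gm51814 to 52, and the printed Slc39a10 promoter, with 47 CG, is near the upper end. No genome sequence was used here, so CG content outside these windows was not measured.

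The motif that went with the number of KO lists was CCAAT, searched on both strands. It was present in 203 of 377 promoters at persisting regions (53.8%, Wilson 95% interval 48.8 to 58.8), against 42.6% (39.3 to 45.9, 876 promoters) with 1 or 2 KO lists, 33.4% (29.6 to 37.4, 554 promoters) with 0, 38.5% of all protein-coding promoters and 37.6% of all 32619 promoters in the table. By number of KO lists the share was 33.4%, 41.1%, 44.6%, 51.6% and 57.0%. A pair or more of copies, as in the H2az2 promoter with 4, was found in 31.6% at persisting regions, 20.5% with 1 or 2 lists and 13.4% with 0. Matches at persisting regions were densest 75 to 51 b before the start, with 19.6 per 100 promoters, against 7.04 there with 0 lists. With 0 lists they were densest 50 to 26 b before the start, with 7.76 per 100 promoters. The intervals cover counting error only, promoters are not replicates, and the motif was singled out of 10 after its values were seen.

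**Figure D5:**
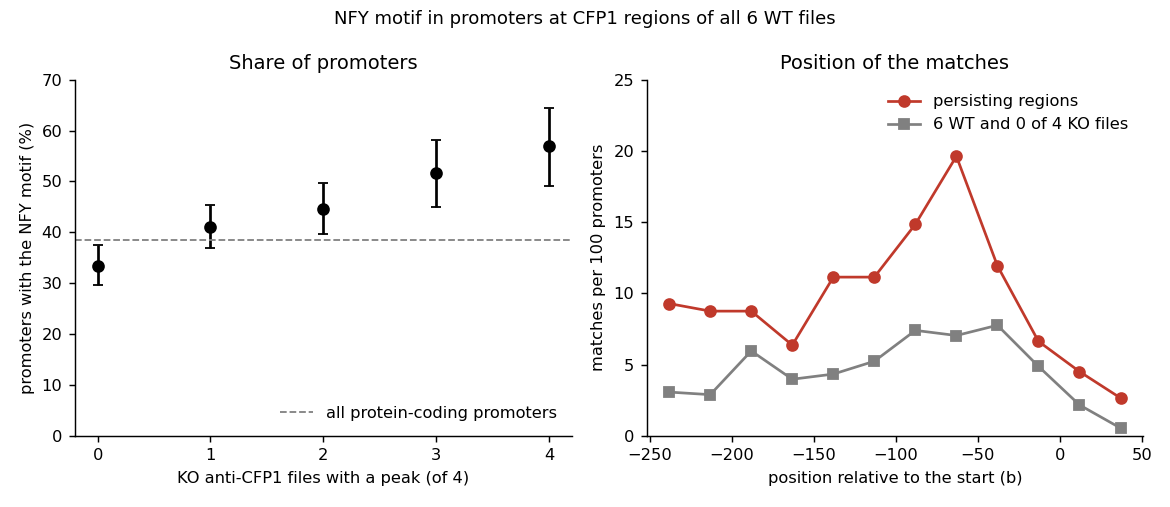
Left, percentage of promoters with CCAAT on either strand, by the number of the 4 KO anti-CFP1 lists with a peak, with Wilson 95% intervals; the dashed line is the 38.5% of all protein-coding promoters. Right, matches per 100 promoters in 25 b bins along the promoter for persisting regions (red) and regions with 0 of 4 KO lists (grey); the red line peaks at 19.6 at 75 to 51 b before the start.

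Base composition, strength in WT and divergent starts were looked at beside this share. In the lowest tertile of promoter G+C, CCAAT was in 63.4% at persisting regions and 41.0% with 0 KO lists, in the middle tertile in 52.4% and 32.3%, and in the highest in 45.0% and 26.6%. In the highest tertile of WT rank the shares were 52.7% and 30.9%, in the middle 54.8% and 32.9%, and in the lowest 62.5% (24 promoters) and 34.3%. With starts on both strands they were 53.2% and 32.1%, and with starts on 1 strand 54.1% and 33.7%. WT rank itself showed no such gradient, with 44.7% in the highest, 38.8% in the middle and 42.9% in the lowest tertile of all 1807 promoters at regions shared by the WT lists.

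The share by single KO library was higher with a peak than without in each of the 4 lists of the rule, at 48.6% and 36.4% for KO CCR6+ replicate 1, 49.0% and 39.3% for KO CCR6+ replicate 2, 52.3% and 38.7% for KO NKp46+ replicate 1 and 46.6% and 39.2% for KO DN replicate 1. For the KO libraries outside the rule it was 43.7% (41.2 to 46.3, 1439 promoters) with and 35.9% (31.1 to 40.9, 368 promoters) without a peak in KO NKp46+ replicate 2, and 42.6% (40.3 to 44.9, 1729 promoters) with and 32.1% (22.7 to 43.0, 78 promoters) without a peak in KO DN replicate 2. Regions with a peak in these 2 lists include most of the persisting ones, so the classes were also taken apart. Among regions with 0 of the 4 KO lists, CCAAT was in 33.5% of promoters with a peak in KO NKp46+ replicate 2 (28.8 to 38.7, 346 promoters) and in 33.2% without (27.1 to 39.8, 208 promoters), and in 33.4% with and 33.3% without a peak in KO DN replicate 2. Among regions with 1 or 2 of the 4 it was 43.5% with and 38.0% without a peak in KO NKp46+ replicate 2, and 43.0% with (852 promoters) and 29.2% without (24 promoters) a peak in KO DN replicate 2, with intervals that overlap in both. Over all regions the share was thus higher with a peak in each of the 6 KO lists, and no such difference showed in the 2 long lists at regions with 0 of the 4 short ones.

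The other motifs did not set persisting regions apart to a like degree. GGGCGG, the box bound by SP and KLF factors, was in 82.2% of promoters at persisting regions, 77.6% with 0 KO lists and 35.9% of all promoters. CCGGAAG, bound by ETS factors, was in 19.1%, 22.7% and 8.92%, and GCATGCGC, bound by NRF1, in 6.10%, 7.94% and 2.72%. TATAAA was in 4.78%, 4.69% and 13.7%. For TGACGTCA (CREB and ATF factors) the shares were 4.24%, 3.79% and 1.80%, for CACGTG (E-box) 8.75%, 9.03% and 7.20%, for AAGATGGC (YY1) 3.71%, 4.87% and 2.76%, for CTCGCGAG 3.45%, 2.89% and 0.926%, and for ACTACAATT (ZNF143) 0.265%, 0.903% and 0.395%. All 10 were searched on both strands, and none of them contains another. A match says only that these letters are in the window.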

How the data were processed

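Peak lists of 24 CUT&Tag libraries (12 anti-CFP1, 12 H3K4me3) were used, grouped by the genotype, subset, antibody and replicate number of their titles, in 12 groups of 2. The submitters' processing notes name build mm10 and, in no stated role, MACS2 2.2.7.1, Bowtie2 2.3.5.1, ChIPseeker 1.28.3, fastp 0.19.7 and Picard. Settings, control libraries and duplicate handling are not given here. Each deposited list gives peak positions and summits, a fold enrichment (a ratio) and the −log10 p-value and q-value of each peak; the lowest −log10 q in a list was 1.30 to 1.42. The deposited score column was not used. Peaks were called per library. Depth is unknown, and a deeper library can give longer lists and wider peaks.

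WT CFP1 peaks were merged where they overlapped, and an overlap of 1 b counted as shared. Of several peaks of 1 library in a region the one with the highest fold enrichment was used. Ranks are percentiles of fold enrichment within a list, and a region's KO or WT rank is the median over the lists with a peak. Gene ends (windows of 1000 b, 21631 protein-coding genes), transcription starts and promoters came from RefSeq tables of GRCm38.p6; gene starts inside genes are partly missed, and genes that share a window count together. H3K4me3 peaks of 12 libraries were merged, and log2 covered bases of the 10040 regions with a peak in all 12, centred on each library's median, were fitted with limma 3.58.1 (R 4.3.3) on 6 group means with a trended prior, with Benjamini-Hochberg adjustment over all regions and a threshold of 0.05. Replicates are not stated to be separate mice, so the p-values rest on a spread that may be technical. Same-numbered KO and WT libraries deviated together (correlations of 0.244, 0.387 and 0.406 in CCR6+, NKp46+ and DN, and 0.244 to 0.585 over all 15 pairs of groups), so the fit with the replicate number as a block is given where it changed a call. The fit was tested on simulated data. Intervals are Wilson 95% intervals.

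Regions were named by a rule: the 10 highest KO ranks, the 5 highest WT ranks, regions without H3K4me3 in all libraries, the leading regions without a gene end, the smallest p-values of each width comparison, members of the gene lists (at most 4 a list), the 3 widest and narrowest, Cxxc1, and 3 regions just outside. Ddx3x, Zmym2 and list members beyond 4 were named after their values were seen. The regions, gene lists and tests were chosen with earlier results of these data known. Scripts ran in Python 3.11.15 (pandas 2.3.3, NumPy 2.4.6, SciPy 1.17.1; figures in matplotlib 3.10.9).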

Additional observations from a re-analysis of the deposited data

Results flagged for a closer look

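In 44 groups of 6 libraries, 3 had 1 library far from the others by Dixon's criterion, where chance gives about 1 group in 20. H3K4me3 was found at 466 persisting regions in KO CCR6+ replicate 1 and at 467 in each of the other 5 KO libraries, a difference of the Cd3d region alone. At H2az2, H3K4me3 covered 917 b in WT NKp46+ replicate 1 and 1104 to 1213 b in the other 5 WT libraries. At Mrps18b and Ppp1r10 it covered 2448 b in WT NKp46+ replicate 1 and 3111 to 3367 b in the others.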

How the results depend on the processing

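The number of persisting regions was 468, against 264 when only peaks of fold enrichment 5 or more were used and 191 when all 4 KO lists were required. Leaving out 1 list gave 468 to 788, with 747 without KO CCR6+ replicate 2 and 788 without KO NKp46+ replicate 1, where 2 of the other 3 KO lists sufficed. The share of promoters with the motif was 39.8% for CCAAT followed by C or G and then A or G, a form chosen after seeing the data. For KO minus WT H3K4me3 width the replicate block called 1 persisting region and 35 in all, against 0 and 6. Over all regions 0 were called without centring, 13 with quantile normalization, 50 with regions in 6 or more libraries and 100 b added, and 0 at a fold enrichment of at least 5; without centring the median difference of all regions was -0.07. Leaving out 1 library gave 3 to 62 for KO minus WT, 0 to 25 for NKp46+ minus CCR6+ and 0 to 32 for DN minus CCR6+, each highest without KO CCR6+ replicate 2 (61 of the 62 narrower in KO), and called 0 persisting regions in each. The cause was not tested. The adjusted p was 0.0502 to 1.0 for Susd6 over 18 alternatives and for Mrps18b and Ppp1r10 over 17, since that region had no value at a fold enrichment of at least 5. The block changed no other call at persisting regions. Counts at gene ends, with H3K4me3 and in KO NKp46+ replicate 2 stayed within 1.5 times. Unknown depth limits every statement on an absent peak.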
